A study of Rattus norvegicus with 23 samples.

Results

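Acta1, Ckm, Des and Myh7, genes of the contractile apparatus and energy supply of adult skeletal muscle, were followed with the muscle transcript ENSRNOG00000049695 in healthy tissues and in repaired median nerves of the rat. They are 5 of the 32545 gene identifiers counted, and all 5 were found. Acta1 is ENSRNOG00000017786, Ckm is ENSRNOG00000016837, Des is ENSRNOG00000019810 and Myh7 is ENSRNOG00000016983. These symbols came with the gene list and could not be looked up in an annotation here. ENSRNOG00000049695 has no symbol here and was chosen by its read count in healthy muscle against the other healthy tissues, as the most abundant muscle-specific transcript. The levels in healthy tissues are therefore given as a description, with no test.

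The median nerve of adult female WT rats was cut to leave a gap of 8 mm. In the series labelled MIV the gap was bridged with a muscle-in-vein graft of 10 mm, a vein that holds a piece of skeletal muscle, and tissue was taken at days 3 and 7 (n = 3 at each day). In the series labelled EV, whose label gives repair after the cut and no MIV, tissue was also taken at days 3 and 7 (n = 3 at each day). Untreated adductor muscle (n = 3), median nerve (n = 5) and epigastric vein (n = 3) were taken at day 0. All 23 libraries are bulk tissue, so fewer muscle cells and less RNA per cell cannot be told apart. Separate animals are not named in the labels, so p-values reflect the spread between these libraries, which may be technical.

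A muscle fibre shortens when myosin thick filaments pull on actin thin filaments, and the myosin heavy chain a fibre makes sets how fast it does so. Acta1 encodes the skeletal muscle alpha-actin of the thin filament. Myh7 encodes the slow myosin heavy chain, made by slow fibres and by the heart ventricle. Des encodes desmin, an intermediate filament protein that ties neighbouring Z discs together and that is also made by smooth muscle, such as that of vein walls. Ckm encodes the muscle creatine kinase, which restores ATP from phosphocreatine beside the myofibrils. Muscle that is moved without its nerve and blood supply is known to lose fibres and then to regenerate from its satellite cells.

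In healthy muscle the 5 genes took 13.9% to 15.6% of all reads, against 0.00737% to 0.0104% in healthy nerve and 0.0465% to 0.0570% in healthy vein. Levels below are CPM, counts put on a common library size and scaled between libraries with TMM factors. They do not correct for transcript length and are compared between libraries only. The TMM factors were 0.410 to 0.421 in muscle and 1.03 to 1.24 in all other libraries, so muscle levels in CPM stand above the plain shares of reads. Acta1 stood at 114360, 107486 and 95088 CPM in the 3 muscle libraries, at 0.142 to 0.492 CPM in nerve and at 7.83 to 12.4 CPM in vein. Ckm stood at 46319, 46094 and 40037 CPM in muscle. It had 0 to 8 counts per library in nerve and 16 to 61 in vein. ENSRNOG00000049695 stood at 176306, 207158 and 191089 CPM in muscle, with 0 to 2 counts per library in nerve and 49 to 235 in vein. For these 3 genes the muscle libraries lay within 1.20-fold of each other.

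Des and Myh7 departed from that pattern in different ways. Des was present in every tissue: 7831, 9275 and 9325 CPM in muscle, 458, 485 and 374 CPM in vein and 63.4 to 91.3 CPM in nerve (median 70.4). Myh7 differed 42.8-fold among the muscle libraries, with 10421, 243 and 2551 CPM in replicates 1, 2 and 3. It was low in nerve, where all 5 libraries held 30 to 83 counts (1.85 to 5.89 CPM), while all 3 vein libraries held none. In vein a count of 0 over the group allows up to 3 counts. The rat genome carries close relatives of Acta1 (the cardiac and smooth muscle actins) and of Myh7 (the alpha myosin heavy chain), and how reads shared between such copies were counted is not given in the sources used here, so these counts are uncertain to that extent.

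The proximal promoters of Acta1 and Des, a gene of striated muscle and one that smooth muscle makes too, are shown since these are the members whose start in the table of promoters is also the start of the annotated gene. Each run gives the 250 bases before the start site in RefSeq (assembly GRCr8), 5′ to 3′ on the strand of the gene. Capitals mark E-boxes, the letters CANNTG bound by myogenic basic helix-loop-helix factors, and the CArG box bound by serum response factor. The CArG box was taken as CCWWWWWWGG, where W is A or T, and near matches were neither marked nor counted. Acta1 lies at chr19:68784195-68784444 on the minus strand and Des at chr9:84299376-84299625 on the plus strand.
Acta1: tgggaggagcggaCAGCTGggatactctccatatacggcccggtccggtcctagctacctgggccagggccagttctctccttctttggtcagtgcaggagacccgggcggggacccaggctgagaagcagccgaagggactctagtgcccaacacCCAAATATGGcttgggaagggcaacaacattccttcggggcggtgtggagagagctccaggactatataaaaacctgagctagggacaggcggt
Des: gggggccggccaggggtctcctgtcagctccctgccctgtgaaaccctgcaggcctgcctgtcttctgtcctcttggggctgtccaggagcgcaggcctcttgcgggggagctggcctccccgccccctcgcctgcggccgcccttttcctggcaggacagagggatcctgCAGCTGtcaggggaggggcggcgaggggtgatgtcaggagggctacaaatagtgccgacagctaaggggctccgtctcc
Both windows held 1 E-box, which began 237 bases before the Acta1 start and 79 bases before the Des start. Of 33469 windows of this length, searched on both strands, 65.5% held an E-box. The Acta1 window held 1 CArG box, 94 bases before the start, and the Des window none, while 1.5% of all windows held one. These matches are a description of the letters in the windows.

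The EV nerves held few reads of Acta1, Ckm and ENSRNOG00000049695, a clear level of Des and no read of Myh7. At day 3, Acta1 had 3, 24 and 14 counts in EV replicates 1 to 3, Ckm had 0, 1 and 0, and ENSRNOG00000049695 had 14, 51 and 10. At day 7, Acta1 had 22, 15 and 124 counts, Ckm had 7, 2 and 80, and ENSRNOG00000049695 had 5, 14 and 213. Replicate 3 at day 7 was thus the highest EV library for these 3 genes, at 6.55, 4.23 and 11.3 CPM. It carries the same replicate number as the highest MIV library, and the cause of its counts was not tested. Des stood at 116, 148 and 41.6 CPM at day 3 and at 173, 155 and 165 CPM at day 7. EV at day 7 lay above healthy nerve and below healthy vein in every library for Des. Myh7 had no count in any of the 6 EV libraries.

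Against healthy nerve, 1 of the 4 genes with a symbol was called in EV at day 3 (edgeR quasi-likelihood test over 15954 genes, Benjamini-Hochberg adjusted p under 0.05). This was Myh7, which fell (edgeR adjusted p = 0.0280). At day 3, 30.7% of all genes were called lower. At day 7 Myh7 again passed as lower (edgeR adjusted p = 0.0329) and Acta1 as higher, with a log2 fold change of 3.33 ± 1.11 SE (edgeR adjusted p = 0.0184). At day 7, 24.1% of all genes were called higher and 24% lower, so such calls were common. The Myh7 call at day 3 was lost without any single EV day 3 library and without the filter on low counts. At day 7 the Acta1 call was lost without EV day 7 replicate 3 and with a replicate block, and the Myh7 call without any single EV day 7 library, without the filter, with a block or without healthy nerve replicate 5. Ckm was called higher at day 7 without EV day 7 replicate 2, without healthy nerve replicate 1 or with DESeq2 (adjusted p = 0.0131), and Des in an edgeR fit of these 2 groups alone (log2 fold change 1.14, adjusted p = 4.14e-05). In those 4 fits 20.7%, 22.4%, 21.8% and 29% of all genes were called higher.

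In the MIV nerves every one of the 5 genes lay above every EV library of both days. At day 3, Acta1 stood at 1700, 282 and 142 CPM in MIV replicates 1 to 3, and Ckm at 191, 10.1 and 8.11 CPM. ENSRNOG00000049695 stood at 196, 24.6 and 14.9 CPM. Des stood at 2257, 642 and 630 CPM, and Myh7 at 24.8, 4.29 and 1.20 CPM. Replicate 1 was the highest day 3 library for all 5 genes, by 3.58-fold over the lowest for Des and by 23.5-fold for Ckm.

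At day 7 the MIV libraries spread further. Acta1 stood at 6090, 149 and 16270 CPM in replicates 1 to 3, a 109-fold range. Ckm stood at 2018, 35.3 and 4749 CPM, and ENSRNOG00000049695 at 4628, 106 and 12764 CPM. Replicates 1 and 3 were high for these 3 genes, whereas replicate 2 lay among the day 3 libraries. Des stood at 1092, 225 and 2620 CPM, an 11.6-fold range, and replicate 2 lay below every healthy vein library. Myh7 stood at 0.910, 0.407 and 17.9 CPM, that is 16, 6 and 255 counts. Replicates 1 and 2 were therefore below all 5 healthy nerve libraries for Myh7, and replicate 1, although rich in Acta1 and Ckm, held almost none of it.

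**Figure D1:**
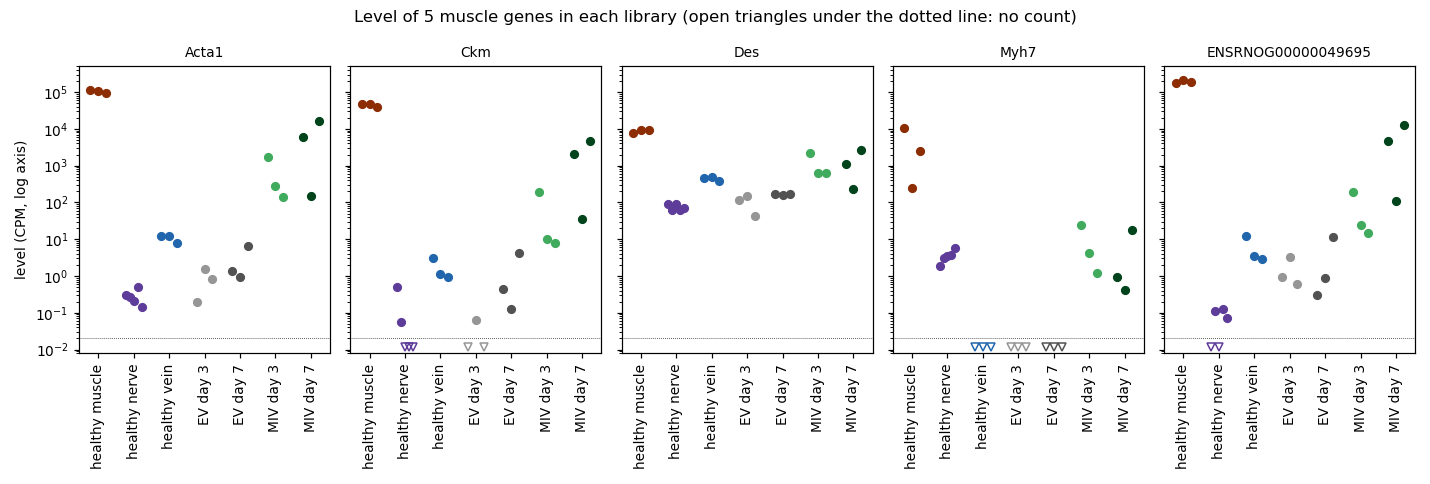
Level of each gene (CPM, log axis) in all 23 libraries, 1 point per library, by group. Open triangles mark libraries with no count. Every MIV library lies above every EV library for all 5 genes, and MIV replicate 2 at day 7 lies far below replicates 1 and 3 except for Myh7, where replicate 1 is also low.

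By level, Acta1 fell into the order muscle, MIV, vein, EV and nerve, where MIV days overlapped each other and EV day 3 overlapped both EV day 7 and nerve. Ckm and ENSRNOG00000049695 had muscle first and MIV next, again with overlapping days, and vein overlapped EV day 7 for both. Des had the same start, but vein lay within the range of MIV day 7, and EV day 3 overlapped nerve. For Myh7 the MIV days and healthy nerve overlapped, below muscle and above vein and EV, which were at 0.

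Among repaired nerves, other muscle-enriched genes took their largest shares of reads in MIV day 3 replicate 1 and MIV day 7 replicates 1 and 3. The other 2837 muscle-enriched genes were those called more than 1 log2 unit higher in healthy muscle than in nerve and in vein. The cut was on TMM-scaled values, which stand high in muscle. Genes with no larger plain share of reads in muscle can thus be among them. These 2837 genes took 21.2%, 18.2% and 18.4% of the reads in MIV replicates 1 to 3 at day 3. At day 7 they took 23.2%, 17.9% and 33.4%, against 16.1% to 19.9% in the 6 EV libraries. EV stood at 17.7% to 19.9% at day 3 and at 16.1% to 17.1% at day 7. MIV day 3 replicates 2 and 3 thus lay within the EV range of their own day. MIV day 7 replicate 2 lay above every EV day 7 library and within the range of EV day 3. Healthy nerve stood at 14.0% to 17.1%. Of the 2692 such genes in the fit of repaired nerves, edgeR called 153 (5.68%) higher in MIV than in EV over both days, beside 1.42% of all genes. Vein-enriched genes took 7.86%, 6.02% and 5.07% of the reads in MIV replicates 1 to 3 at day 7, and nerve-enriched genes 5.90%, 4.63% and 4.19%. Replicate 1, high in muscle genes, was thus also the highest of the 3 for both. Library totals ran from 12504035 to 17314324 counts. The part that the amount of muscle in each dissected sample had in these levels was not tested.

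The study's stated interest is the role of muscle fibres early after repair with the graft, and the contrast of MIV with EV bears on it. All 5 genes had MIV libraries wholly above the EV libraries at day 3, where 7.21% of 15036 genes had such a pattern. The same held at day 7 for all 5, against 9.64% of genes. Over both days all 5 had 6 MIV libraries above 6 EV libraries, a pattern found in 1.21% of genes. The median log2 fold change of the 5 was 9.68 at day 3 and 10.45 at day 7, beside -0.02 and 0.01 over all genes and 0.05 and 0.41 over the other muscle-enriched genes. Since the genes were proposed with such results known, these counts describe the data.

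The fold changes were large and their errors were large too. Acta1 had a log2 fold change of 9.68 ± 1.95 SE at day 3 and 11.31 ± 2.03 SE at day 7. For Ckm the value at day 7 was 10.45 ± 2.26 SE, and at day 3, where EV held 1 count in all, MIV held 4137. The ratio at day 3 was 3376-fold with a 95% interval from 606 to 133372, which covers counting error only. Of those counts 3791 came from MIV day 3 replicate 1, and without it the ratio was 429-fold (76.4 to 16984). For ENSRNOG00000049695 the log2 fold changes were 5.61 ± 1.88 SE and 10.46 ± 2.25 SE. Des, which had a clear level in EV too, had 3.52 ± 0.87 SE and 3.02 ± 0.85 SE. Myh7, at 0 in EV, was at least 161-fold higher in MIV at day 3 and at least 100.2-fold higher at day 7, taken against 3 counts over the EV group. A single library carried each bound: without MIV day 3 replicate 1, with 492 of 592 counts, the first was 41.3-fold, and without MIV day 7 replicate 3, with 255 of 277 counts, the second was 11.5-fold.

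None of the 5 passed edgeR's quasi-likelihood test at either day alone, in a fit that called 0% of all 15036 genes at day 3 and 0% at day 7. All 5 had an unadjusted p under 0.05 at both days, as did 5.15% of all genes at day 3 and 16.7% at day 7. The edgeR adjusted p ran from 0.173 (Acta1) to 0.583 (ENSRNOG00000049695) at day 3 and from 0.0685 (Acta1) to 0.204 (Myh7) at day 7. DESeq2 called all 5 higher at each day, where it called 1.38% of all genes higher at day 3 and 3.94% at day 7. Without MIV day 7 replicate 2, the low library, edgeR called 4 of the 5 higher at day 7 (Myh7 had an adjusted p of 0.139), where 4.21% of all genes were, and Acta1 alone at day 3, where 0.454% were.

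Over both days, 4 of the 5 rose in MIV relative to EV, where 1.42% of all genes were called higher. The log2 fold change was 10.49 ± 1.40 SE for Acta1 (edgeR adjusted p = 0.0110) and 10.85 ± 1.78 SE for Ckm (edgeR adjusted p = 0.0180). It was 8.04 ± 1.46 SE for ENSRNOG00000049695 (edgeR adjusted p = 0.0269) and 3.27 ± 0.61 SE for Des (edgeR adjusted p = 0.0275). Myh7 did not pass (edgeR adjusted p = 0.0976). It was called, as were the other 4, with DESeq2 (adjusted p = 2.29e-06) and with all 23 libraries in the edgeR fit (adjusted p = 0.0160), where 3.72% and 4.38% of all genes were called higher. Fewer were called when some single libraries were left out. Without EV day 3 replicate 1 or 3 or without any single EV day 7 library, edgeR called 0 of the 5. It called 1 without EV day 3 replicate 2 and 2 without MIV day 3 replicate 1. Calls over all genes fell too: those fits called 0% to 0.013%, 0.388% and 0.678% of all genes higher. With a replicate block edgeR called 2, Acta1 and Ckm, and 0.652% of all genes higher. The log2 fold change of Acta1 was 9.62 to 11.17 over the alternatives run.

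**Figure D2:**
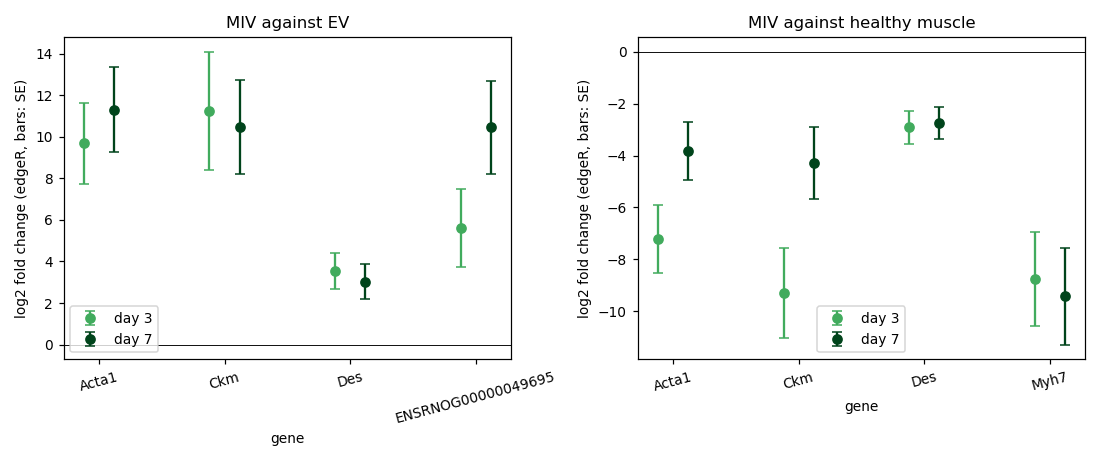
Log2 fold changes with SE (edgeR) for MIV against EV (left; Myh7, at 0 in EV, is left out) and MIV against healthy muscle (right; ENSRNOG00000049695, chosen by its level there, is left out), at days 3 and 7. Des has the smallest distance from 0 in both panels, and the values of Acta1 and Ckm against muscle are nearer 0 at day 7 than at day 3, a change between days that did not pass in MIV.

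From day 3 to day 7 in MIV, ENSRNOG00000049695 rose, with a log2 fold change of 6.26 ± 1.88 SE (edgeR adjusted p = 0.0477), and 7.39% of all genes were called higher. Acta1 had 3.45 ± 1.44 SE and Ckm 5.07 ± 1.78 SE, and neither passed (edgeR adjusted p = 0.125 and 0.0778). Des and Myh7 had log2 fold changes of 0.19 ± 0.78 SE and -0.62 ± 1.56 SE (edgeR adjusted p = 0.890 and 0.820). Without MIV day 7 replicate 2 edgeR called 3 of the 5 higher (Acta1, Ckm and ENSRNOG00000049695), as it did 12% of all genes. DESeq2, on all 12 libraries, called the same 3 and 12.9% of all genes higher. The single edgeR call was lost without the filter on low counts, with a replicate block and without either of MIV day 3 replicates 2 and 3. It was also lost without MIV day 7 replicate 1 or 3, and without 5 of the 6 EV libraries, which share the estimate of the spread. Without MIV day 3 replicate 1 edgeR called 2 of the 5, and 6.37% of all genes higher.

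In EV none of the 5 passed between the days with edgeR, where 19.6% of all genes did, and 0 of the 5 had an unadjusted p under 0.05. Myh7 could not pass here, since no EV library held a count of it. DESeq2 called Ckm, and 24.6% of all genes. Whether the MIV effect differed from day 3 to day 7 was tested too. With edgeR this was called for none of the 5 and for 0% of all genes, with 0 of the 5 at an unadjusted p under 0.05. DESeq2 called none of the 5. For Myh7, at 0 in EV on both days, the test could not decide, since the EV change has no estimate. For ENSRNOG00000049695 that difference was 4.84 ± 2.33 SE on the log2 scale (edgeR adjusted p = 0.906), so a rise in MIV beyond that in EV was not shown.

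Against healthy muscle, the MIV libraries remained low for all 5 genes and least so for Des. Des reached 25.6%, 7.29% and 7.15% of the muscle mean at day 3 and 12.4%, 2.55% and 29.7% at day 7. Acta1 reached 1.61%, 0.267% and 0.134% at day 3 and 5.76%, 0.141% and 15.4% at day 7. Ckm reached 0.432%, 0.0229% and 0.0184% at day 3 and 4.57%, 0.0800% and 10.8% at day 7. ENSRNOG00000049695 reached at most 0.102% at day 3 and 2.42%, 0.0555% and 6.66% at day 7. Myh7 stayed at or below 0.562% in all 6 MIV libraries, and its highest MIV level, 24.8 CPM, was below the lowest healthy muscle library at 243 CPM. Its muscle mean comes from libraries at 10421, 243 and 2551 CPM, so the Myh7 percentages are less certain than the others. The percentages of all 5 genes rest on the TMM scaling: from plain shares of reads, a setting added after the factors were seen, they were 2.58 to 2.92 times as large. The highest MIV library then held 78.1% of the muscle share for Des, 40.4% for Acta1, 28.2% for Ckm, 17.5% for ENSRNOG00000049695 and 1.57% for Myh7. On the TMM scale, Des in healthy vein stood at 4.24% to 5.50% of the muscle mean. In EV it stood at 0.472% to 1.69% at day 3 and at 1.76% to 1.96% at day 7.

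**Figure D3:**
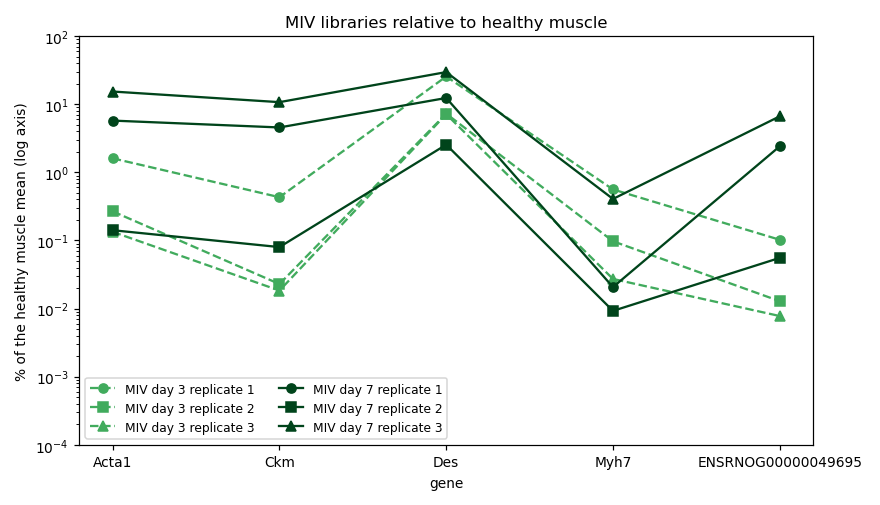
Level in each of the 6 MIV libraries as a percentage of the healthy muscle mean (log axis) for the 5 genes, 1 line per library. Des is the highest point of every line, and ENSRNOG00000049695 lies below Myh7 in the day 3 libraries and above it in the day 7 libraries. The place of Myh7 rests on a muscle mean from libraries that differed 42.8-fold.

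All 4 genes with a symbol fell relative to healthy muscle at day 3, where 33% of 15954 genes were called lower, and at day 7, where 31.3% were. At day 3 the log2 fold change was -7.22 ± 1.31 SE for Acta1, -9.31 ± 1.73 SE for Ckm, -2.91 ± 0.64 SE for Des and -8.77 ± 1.81 SE for Myh7, with edgeR adjusted p between 7.61e-05 and 0.000757. At day 7 the values were -3.82 ± 1.12 SE, -4.28 ± 1.38 SE, -2.75 ± 0.63 SE and -9.43 ± 1.86 SE in the same order, with edgeR adjusted p between 0.000574 and 0.0108. At day 7, 0.176% of the other muscle-enriched genes had a lower fold change than Myh7, and 25.9% had a lower one than Des. Fitted on these 2 groups alone, Acta1 and Ckm did not pass at day 7 (edgeR adjusted p = 0.0824 and 0.0560). Scaling on genes that are not muscle-enriched shifted the median of all genes from 0.07 to -0.17 at day 3 and from 0.17 to -0.04 at day 7, and all 4 genes were called lower under it. With library totals alone the median moved to 1.56 and 1.58, and 10618 of 12502 calls at day 3 were higher, against 5338 of 10601 with TMM. All 4 genes were still called lower at day 3 (log2 fold changes from -7.83 to -1.42). At day 7, 3 of the 4 were, and Des had -1.33 (edgeR adjusted p = 0.0504).

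Against healthy nerve, Acta1, Ckm and Des rose in MIV at day 3, where 30.9% of all genes were called higher, and at day 7, where 29.2% were. Their log2 fold changes at day 7 were 14.62 ± 1.38 SE, 14.19 ± 1.72 SE and 4.11 ± 0.55 SE (edgeR adjusted p of at most 5.16e-06). Myh7 was not called at either day, with 1.49 ± 1.19 SE at day 3 and 0.82 ± 1.22 SE at day 7 (edgeR adjusted p = 0.298 and 0.592).

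Ratios between genes of 1 library are free of library size and scaling. The ratio of counts to Acta1 depends on transcript lengths too and was compared only between libraries. Relative to Acta1, ENSRNOG00000049695 stood at 0.115, 0.0871 and 0.105 in MIV at day 3, at 0.760, 0.711 and 0.785 at day 7, and at 1.54, 1.93 and 2.01 in healthy muscle. Within a day these ratios lay close together, although the Acta1 level itself ranged 12.0-fold at day 3 and 109-fold at day 7. MIV day 7 replicate 2, with an Acta1 level like that of the day 3 libraries, had the ratio of its own day.

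Ckm gave the same order. Its ratio to Acta1 was 0.112, 0.0358 and 0.0573 in MIV at day 3, 0.331, 0.236 and 0.292 at day 7 and 0.405, 0.429 and 0.421 in healthy muscle, with no overlap between the 3 groups. A ratio to Acta1 that was higher in all day 7 than in all day 3 libraries was found in 0.361% of 14668 genes and in 1.45% of the other muscle-enriched genes. This comparison of days was chosen after the values were seen, and 3 libraries against 3 cannot give an exact permutation p below 0.1. The log2 ratio of Ckm to Acta1 was lower in MIV than in healthy muscle by a mean difference of -1.66 (6 against 3 libraries, lower in 6 of 6, two-sided exact permutation p = 0.0238, the smallest possible, adjusted p = 0.0357 over 3 ratios). A ratio to Acta1 lower in all MIV libraries was found in 0.252% of genes and in 1.2% of the other muscle-enriched genes.

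Des gave the opposite order. Its ratio to Acta1 was 1.33, 2.27 and 4.45 in MIV at day 3, 0.179, 1.505 and 0.161 at day 7 and 0.0685, 0.0863 and 0.0981 in healthy muscle. The mean difference of the log2 ratio was 3.45 (higher in 6 of 6 MIV libraries, two-sided exact permutation p = 0.0238, adjusted p = 0.0357). A higher ratio to Acta1 in all MIV libraries was the rule rather than the exception, found in 92.9% of genes and in 73.5% of the other muscle-enriched genes. As an alternative chosen after the values were seen, the same-day EV mean was taken off each MIV level. The ratio of Des to Acta1 in the 6 MIV libraries then ran from 0.151 to 3.75, all above healthy muscle, with a mean difference of 3.00. The share of all genes with that pattern was not counted after the subtraction, and the source of the Des reads was not tested.

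The ratio of Myh7 to Acta1 was 0.0146, 0.0152 and 0.00847 in MIV at day 3 and 0.000149, 0.00273 and 0.00110 at day 7. In healthy muscle it ran from 0.00226 to 0.0911, so the day 3 libraries lay inside the muscle range. Of the day 7 libraries, 2 of the 3 lay below it. The mean difference of MIV from muscle was -2.49 on the log2 scale (two-sided exact permutation p = 0.214, adjusted p = 0.214). The log2 ratios of the muscle libraries themselves had an SD of 2.72 (n = 3).

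**Figure D4:**
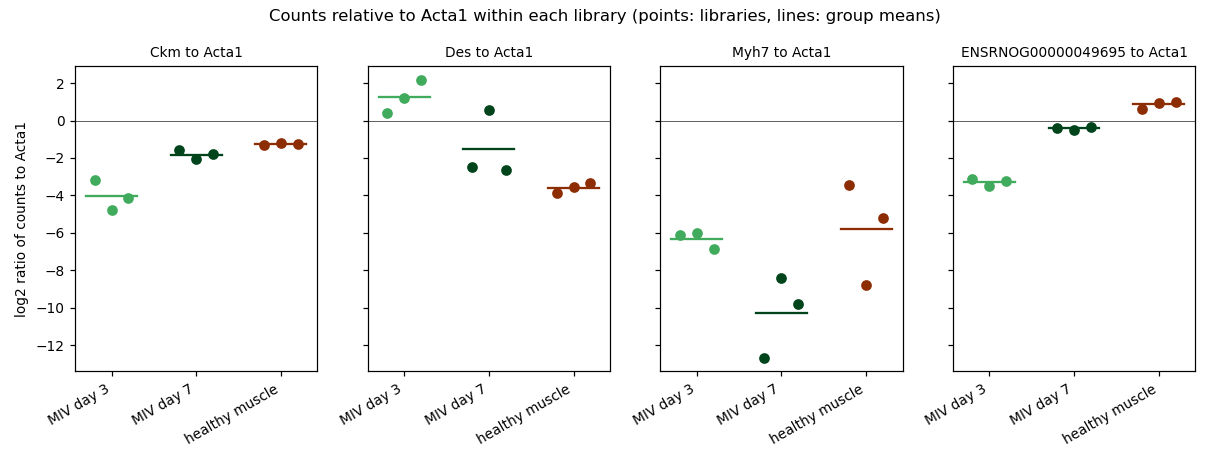
Log2 ratio of counts to Acta1 within each library for Ckm, Des, Myh7 and ENSRNOG00000049695, by group (points: libraries; lines: means of 3). Ckm and ENSRNOG00000049695 step up from MIV day 3 to MIV day 7 to healthy muscle without overlap, Des steps down with MIV day 7 replicate 2 among the day 3 values, and Myh7 is widely spread in healthy muscle.

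Over the 6 MIV libraries, log2 CPM of Ckm and ENSRNOG00000049695 correlated at a Pearson r of 0.990, Acta1 and Ckm at 0.966, and Des and Myh7 at 0.855, whereas Myh7 and ENSRNOG00000049695 correlated at 0.295. These values are descriptions over libraries that share their tissue and depth. The genes most like all 5 over the 12 repaired libraries were ENSRNOG00000055450 and ENSRNOG00000011659, with mean Pearson r of 0.948 and 0.947, out of 10790 candidates. Both were muscle-enriched. ENSRNOG00000011659 stood at 58.4, 19.3 and 12.0 CPM in MIV at day 3, at 108, 9.24 and 263 CPM at day 7 and at 0.533 to 1.92 CPM in EV.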

How the data were processed

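Raw counts per Ensembl rat gene identifier and library, with no normalization, were deposited by the authors in a single table. Per the labels' protocols, mRNA was purified with poly-T beads and libraries were non-directional, so strand is not known. CASAVA and HISAT2 are named in the submitters' processing notes. The counter, the build and the annotation: not given in the sources used here. No reference table paired the identifiers with symbols, so the pathway and cell type lists fixed by symbol were not measured, and no cell type is named from markers. Muscle-, nerve- and vein-enriched genes (2842, 1485 and 1127) stood in for them: log2 fold change above 1, with an adjusted p below 0.05, in that tissue over each of the others. The members and lists were chosen with earlier results of these data known.

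R 4.3.3 was used. The edgeR (4.0.16) quasi-likelihood fits were robust, with TMM, filterByExpr (counts of 10, total of 15) and Benjamini-Hochberg adjustment over all genes. MIV, EV and time used the 12 repaired libraries (15036 genes), and healthy tissues all 23 (15954 genes). SE is the fold change over the root of F. CPM took TMM factors from the 23 libraries. Ratios were log2 of counts plus 0.5, with exact permutation tests (scipy 1.17.1). The ratio background took genes with 10 counts in at least 3 libraries. Alternatives were DESeq2 1.42.0, RLE, scaling without muscle-enriched genes, library totals alone, no filter, other libraries in the fit, a replicate block and leaving out each library. Only the fit of MIV against EV over both days was tried on simulated data. The simulated fold changes were smaller than those of the members other than Des, so the trial does not bear on their calls. Named genes were the members and the 2 genes with the highest mean correlation with them. Replicates of a group differed by more than counting noise. At day 7, EV and MIV libraries of the same number varied in common (correlations of deviations across genes 0.224, 0.201 and 0.176), and at day 3 they did not all do so (-0.0913, 0.239 and -0.0149). The labels name no pairing, and the main tests held no term for it. A block of the replicate number, over all groups or at day 7 only, was run as an alternative.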

Additional observations from a re-analysis of the deposited data

Results flagged for a closer look

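Ckm in healthy nerve replicate 1 stood apart from the other 4 nerve libraries, at 0.492 CPM (8 counts) against 0 or 1 count. In groups of this size about 1 in 20 is flagged in this way when nothing is amiss and values are normally distributed. Counts near 0 are not, so the rate here is not known. The groups of 3 libraries were too small for this rule and could not be flagged.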

How the results depend on the processing

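Log2 fold changes of single genes kept their direction in all but 11 of the fits tried, and none of those 11 concerned a called gene. RLE scaling and scaling without muscle-enriched genes changed no call of the 5 genes. DESeq2 called 5 of the 5 for MIV against EV at day 3 and 5 at day 7, 3 for MIV day 7 against day 3 and 1 for EV day 7 against day 3. With all 23 libraries in the fit, edgeR called 3, 4 and 3 higher for the first 3 of these, where it called 0.965%, 5.18% and 14.3% of all genes higher. With DESeq2 these shares were 1.38%, 3.94% and 12.9%. Over all genes, MIV against EV over both days gave 232 calls with edgeR, 820 with DESeq2, 975 with all 23 libraries and 109 with a replicate block. Without the filter, 0 were called for MIV day 7 against day 3, 0 for EV day 3 against healthy nerve and 1 for EV day 7 against healthy nerve. In these 7.98%, 41% and 31.7% of all genes were called. Fitted on the 2 groups alone, 2 of the 4 were called for MIV day 7 against healthy muscle, beside 59.1% of all genes.

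With the replicate number as a block over all groups, edgeR called 2 for MIV against EV over both days (Des and ENSRNOG00000049695 had adjusted p of 0.0872 and 0.0711). It called 0 for MIV day 7 against day 3 and 0 for EV day 7 against healthy nerve. In these 0.725%, 11.9% and 40.5% of all genes were called. Libraries of the same number did not all vary in common. With the block at day 7, where they did between EV and MIV, 0 of the 5 and 43 genes in all were called for MIV against EV (edgeR adjusted p of 0.0527 for Acta1 and 0.0555 for Ckm). With the day 7 libraries fitted alone, 4 genes in all were called.

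Leaving out 1 library at a time, the members called ranged from 0 to 1 for MIV against EV at day 3, from 0 to 4 at day 7 and from 0 to 4 over both days. In those fits 0% to 0.454%, 0% to 4.47% and 0% to 4.53% of all genes were called. The range was 0 to 3 for MIV day 7 against day 3, 0 to 1 for EV day 3 against healthy nerve and 0 to 3 for EV day 7 against healthy nerve. Here 5.24% to 23.2%, 53.7% to 59.1% and 40.4% to 45.7% of all genes were called. Single values that turned sign, none of them called, ranged as follows. The difference between days of MIV against EV ran from -2.75 to 2.13 for Ckm and from -1.51 to 0.38 for Des. EV day 7 against day 3 ran from -1.37 to 2.47 for ENSRNOG00000049695, the lowest without EV day 7 replicate 3. MIV day 7 against day 3 ran from -0.82 to 1.07 for Des and from -3.90 to 1.25 for Myh7, with the lowest values without MIV day 7 replicate 3 and the highest without MIV day 3 replicate 1. Against healthy nerve, Ckm in EV at day 3 ran from -3.90 to 0.28, and Myh7 in MIV from -0.40 to 2.02 at day 3 and from -2.40 to 1.38 at day 7. The cause was not tested.

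The log2 ratios to Acta1 in MIV minus healthy muscle were -2.77 for Ckm and 4.83 for Des with day 3 alone, and -0.56 and 2.08 with day 7 alone, each at an adjusted exact permutation p of 0.15, since 3 against 3 libraries cannot pass. Without 1 library they ran from -1.93 to -1.29 for Ckm and from 3.00 to 3.96 for Des, and with fewer libraries the adjusted exact permutation p, 0.0536 to 0.107, could not pass. Depth limited the low end: a group with no count allows up to 3 counts, and intervals cover counting error only.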
